A study of Mus musculus with 16 samples.

Results

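The genes described are 10 collagen chain genes of the interstitial matrix: Col1a1, Col1a2, Col3a1 and Col11a1 of the fibrillar collagens, Col12a1 and Col14a1 of the fibril-associated collagens, and Col6a1, Col6a2, Col6a3 and Col6a6 of collagen VI. They are a list of gene names with no threshold on these values, drawn up with earlier results of these data known, and all 10 were found among 21883 protein-coding genes of the mouse annotation. The C57BL/6 mouse muscle stem cells studied, taken from skeletal muscle, were quiescent (QSC) or activated (ASC). The sources used here do not give the age of the mice, how cells were isolated or activated, or whether replicates came from separate animals. Chromatin was immunoprecipitated for H3K4me3 or H3K27me3 in 2 replicates per mark and state, each with its own input, giving 16 libraries. The authors deposited 1 narrow and 1 broad peak list for each mark and state, which the labels name for both replicates. There is therefore no replicate spread behind any value, no test of a difference between QSC and ASC, and the read depth is unknown.

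Fibrillar collagen I is a heterotrimer of the chains made from Col1a1 and Col1a2, and collagen III, made from Col3a1, is laid down beside it. Collagen VI forms beaded microfibrils near the basement membrane of muscle fibres and is known as part of the satellite cell niche, and mutations in its genes cause human muscular dystrophies. H3K4me3 lies at promoters that are active or poised, and H3K27me3 is the mark of Polycomb repression. Promoters that carry both are called bivalent.

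Peaks were read over the record window, which is the gene record plus 10 kb on either side, and over the start window, which is 1 kb on either side of the annotated gene start. RefSeq starts were available for 7 of the members, and for Col1a1, Col12a1 and Col14a1 both ends of the record were used. H3K4me3 was called where a narrow peak touched the window, and H3K27me3 where broad peaks covered at least 500 bp of it. The fold given for a peak is the authors' enrichment over local background within its own list, so folds of QSC and ASC lists are not a measure of change. Coordinates are in mm10.

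Satellite cell identity could be read in the same lists. All 8 satellite cell markers examined, Pax7 and Myf5 among them, had H3K4me3 at the start in both states, with folds from 13.1 to 26.4 in QSC and from 8.13 to 47.9 in ASC. Of 10 markers of fibro-adipogenic cells and fibroblasts, which are the main collagen-producing cells of muscle, 2 had H3K4me3 at the start in QSC, and 5 had it in ASC, beside 54.4% and 57.0% of all protein-coding genes. The additions were Pdgfra, Cd248 and Fap, with ASC folds of 5.24, 5.42 and 7.77, where 3.29% of all genes were called in ASC only. Dpt was called in both states, with a domain of 2625 bp and a fold of 20.1 in QSC and 1450 bp and 5.60 in ASC, and Dcn and Lum had no H3K4me3 call in either state. The fibro-adipogenic markers called had folds from 6.05 to 20.1 in QSC and from 5.24 to 7.77 in ASC. Endothelial markers had 2 and 3 calls of 6, with Cldn5 in ASC only (3.29% of all genes). Pericyte and smooth muscle markers had 4 and 3 of 6, with Myh11 in QSC only (0.736%). Immune markers had 0 of 5 in each state. H3K27me3 at the start in ASC only, found at 7.68% of all genes, was called at 2 of 8 satellite cell markers (Calcr and Chrdl2), 4 of 6 pericyte and smooth muscle markers (Pdgfrb, Mcam, Myh11 and Cspg4), 2 of 5 immune markers (Ptprc and Adgre1), and 0 of the fibro-adipogenic and endothelial markers. Pecam1, an endothelial marker, had H3K27me3 at the start in QSC only (2.56% of all genes).

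H3K4me3 was present at most of the collagen genes, in shares near those of all protein-coding genes. The narrow lists of the states differed in calls at Col1a1, Col14a1 and Col6a6. In the record window 7 members had the mark in QSC and 8 in ASC, against 62.8% and 65.2% of all protein-coding genes, and Col6a3 had it in neither (34.0%). At the start 6 members had it in QSC (54.4%) and 7 in ASC (57.0%), 1 in QSC only (0.736%), 2 in ASC only (3.29%), and Col12a1 and Col6a3, 2 members, in neither (42.3%). No RefSeq start was available for Col12a1, and its peaks lay 1253 bp (QSC) and 1512 bp (ASC) from the record end used. By narrow peaks, the fibrillar and fibril-associated members had longer H3K4me3 in ASC or were called there alone, whereas Col6a1 and Col6a2 had shorter H3K4me3 in ASC. Shorter H3K4me3 in ASC was also found at fibrillar genes outside the members, Col5a1 and Col5a3. The shares of all genes called in a single state were small, 0.74% for QSC only and 3.21% for ASC only in the record window, beside 1 and 2 of the members.

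**Figure D1:**
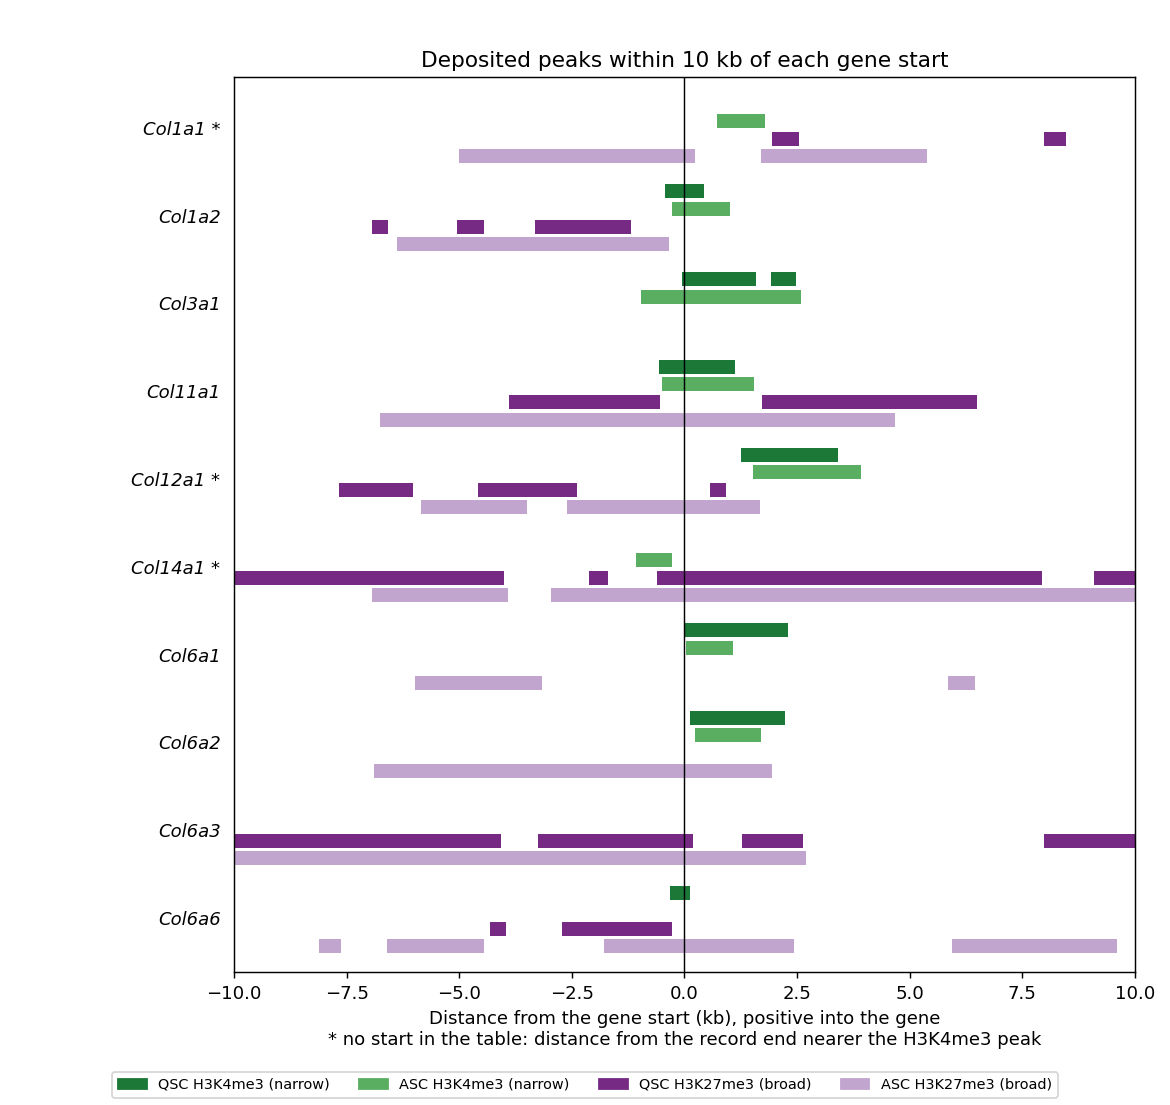
Positions of deposited peaks within 10 kb of the start of each of the 10 genes, with distance in kb on the x axis and positive values running into the gene; rows show narrow H3K4me3 peaks and broad H3K27me3 peaks of QSC and ASC. Col3a1 has H3K4me3 and no H3K27me3, Col6a3 has H3K27me3 and no narrow H3K4me3, and the H3K4me3 peaks of Col6a1 and Col6a2 reach less far into the gene in ASC.

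Col1a1 encodes the alpha 1 chain of collagen I and lies on chromosome 11 from 94936224 to 94953042. The QSC narrow list held no H3K4me3 peak in its record window. The ASC list held 1 peak of 1077 bp (94936943 to 94938019), 719 bp inside the record from its lower end, with a fold of 4.15 that exceeded only 4.83% of the peaks of that list. The broad lists, which take in weaker enrichment, had a peak over the same end in both states, 3220 bp long in QSC (fold 1.77, -log10 q of 0.22) and 3577 bp long in ASC (fold 2.12, -log10 q of 1.09). The QSC broad list for H3K4me3 holds 184538 peaks with a median -log10 q of 0.0, and the ASC list 29297 peaks, so a QSC peak at this level carries little statistical weight. In the narrow lists Col1a1 was called in ASC alone.

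Col1a2, the gene of the partner chain (chromosome 6, 4505618 to 4541543), had a narrow H3K4me3 peak over its start in both states. The peak measured 881 bp in QSC with a fold of 4.39 and 1280 bp in ASC with a fold of 6.86. These are low values within their lists, above 9.30% and 20.8% of peaks. The chains of collagen I are made for 1 protein, yet their H3K4me3 calls were not the same, with Col1a2 called in both states and Col1a1 in ASC alone.

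Col3a1 (chromosome 1, 45311538 to 45349706) had the highest H3K4me3 folds of the 4 fibrillar members in both lists, although its QSC fold was below the median of that list (10.4). In QSC there were 2 peaks, of 1627 bp over the start (fold 8.47) and of 567 bp further inside the gene (fold 4.22). In ASC a single peak of 3557 bp (45310580 to 45314136) with a fold of 17.3 spanned that stretch. Joined into domains wherever gaps did not exceed 1 kb, these peaks gave Col3a1 a QSC domain of 2532 bp beside 3557 bp in ASC. The outer edge lay 911 bp further upstream in ASC, while the inner edge lay 114 bp further into the gene. The outer extension was larger than at 92.5% of 9500 genes. These are the genes with a RefSeq start and domains at it that overlap between the states.

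Col11a1, a minor fibrillar chain that is built into the core of cartilage-type fibrils (chromosome 3, 114030479 to 114220756), had a peak of 1669 bp with a fold of 6.29 in QSC and one of 2032 bp with a fold of 8.49 in ASC. Col12a1 encodes a fibril-associated collagen of tendon and muscle connective tissue (chromosome 9, 79598987 to 79721141). Its H3K4me3 peak lay 1253 bp inside the upper end of the record in QSC and 1512 bp inside it in ASC, so it falls in the record window and outside the start window. It measured 2160 bp (fold 8.21) in QSC and 2407 bp (fold 13.4) in ASC. Both genes were therefore marked in each state, with a slightly longer peak in ASC.

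Col14a1, another fibril-associated collagen (chromosome 15, 55307644 to 55520803), had no narrow H3K4me3 peak in QSC. In ASC there was a peak of 786 bp (55306576 to 55307361) that ended 283 bp outside the lower end of the record, with a fold of 4.68. The QSC broad list held a peak of 2779 bp at that end with a fold of 1.68, against 4821 bp and 2.44 in ASC. Col1a1 and Col14a1 were the members called in ASC alone, and both were absent from the ASC list when it was shortened to the same number of peaks as the QSC list. Of the 10 fibro-adipogenic markers, 3 likewise had an H3K4me3 call at the start in ASC only (3.29% of all genes). Another 2 were called in both states, Dpt with the shorter domain in ASC, and the other 5, Dcn and Lum among them, in neither. The part of such cells in this result was not tested.

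Col6a1 and Col6a2, which encode the short chains of collagen VI, gave the opposite picture. They lie in tandem on the minus strand of chromosome 10 (76708792 to 76726044 and 76595756 to 76623630). At Col6a1 the QSC peak measured 2287 bp (76723756 to 76726042) with a fold of 16.2, above 83.4% of the peaks of that list. The ASC peak measured 1041 bp (76724967 to 76726007) with a fold of 5.82, above 16.7% of the peaks of its list. At Col6a2 the QSC peak measured 2108 bp (fold 9.68) and the ASC peak 1479 bp (fold 7.04). Col6a1 therefore had the highest fold of all members in QSC, and in ASC a value below those of Col3a1, Col12a1, Col11a1, Col6a2 and Col1a2.

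The shortening at Col6a1 and Col6a2 lay on the inner side of the domain. With extension in ASC written as positive and withdrawal as negative, the outer edge at Col6a1 had a value of -35 bp and the inner edge -1211 bp. At Col6a2 the values were -95 bp and -534 bp. Across 9500 genes the median inner edge lay 557 bp further into the gene in ASC, and an inner edge drawn in by 500 bp or more was found at 1.92% of them. Only 0.60% of genes had a lower value than Col6a1 and 1.77% a lower value than Col6a2.

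Placed beside all genes, the lengths at Col6a1 and Col6a2 were unusual and those of the fibrillar members were not. Over 13569 genes with H3K4me3 in the record window in both states, the longest domain touching that window was compared. It need not lie at the gene start. The median log2 ratio of ASC over QSC length was 0.54, and 9.04% of genes had the shorter domain in ASC. Of the 6 members with a domain in both states, 2 were shorter in ASC, and the median of the 6 was 0.22. The ratio was 0.54 at Col1a2, 0.49 at Col3a1, 0.28 at Col11a1 and 0.16 at Col12a1. It was -1.14 at Col6a1 and -0.51 at Col6a2, with 0.31% and 1.66% of genes lower. Of the 8 satellite cell markers, 5 also had the shorter domain in ASC, and the median of the 8 was -0.12. Chrdl2 (-1.67) lay below Col6a1, and Cdh15 (-1.058) and Sdc4 (-0.513) lay at or below the value of Col6a2. The highest of the 8 was Myf5 (0.913). When the ASC H3K4me3 list was reduced to the number of bases that the QSC list covers, the ASC peaks of Col1a2, Col11a1, Col12a1, Col6a1 and Col6a2 were no longer in it and Col3a1 alone was left. With broad H3K4me3 lists, which cover 254.9 Mb in QSC and 88.8 Mb in ASC, the ratio was -0.36 at Col6a1 and -0.24 at Col6a2. The share of all genes is not given for these lists. The broad peak at the start was also shorter in ASC at Col3a1 (8642 bp in QSC, 7969 bp in ASC). It was nearly equal at Col12a1 (6152 bp and 6126 bp). It was longer in ASC at Col1a2 (1681 bp and 8155 bp) and Col11a1 (4273 bp and 5560 bp).

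**Figure D2:**
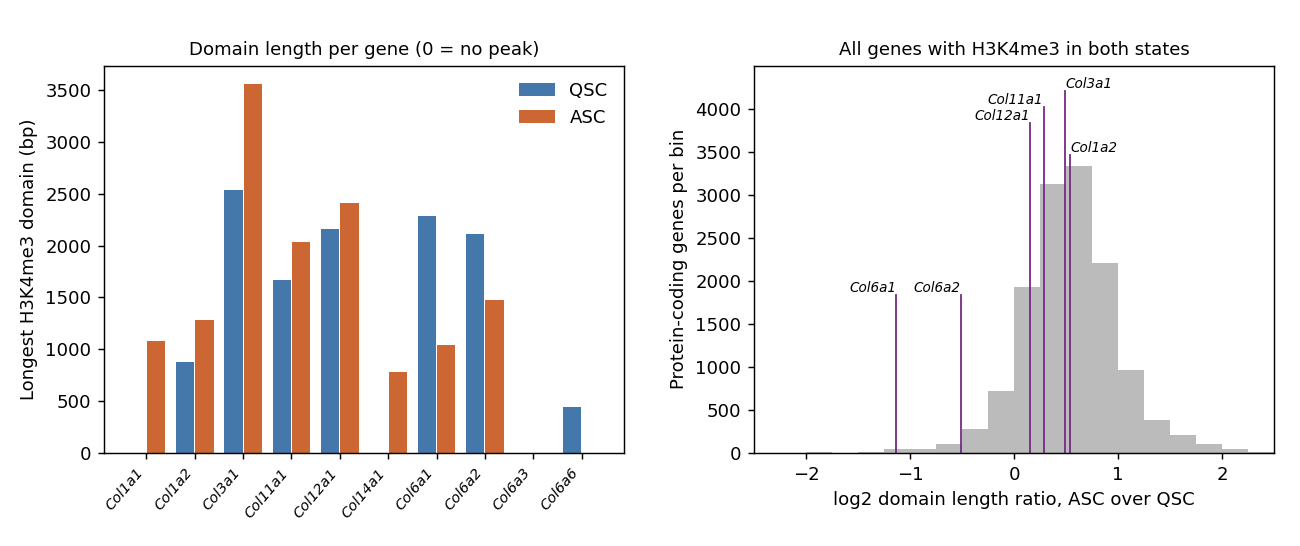
Left, length in bp of the longest H3K4me3 domain in the record window of each gene in QSC and ASC, where 0 means that no narrow peak was called; right, the number of protein-coding genes by log2 of ASC length over QSC length, in bins of 0.25, with 6 collagen genes marked. Col6a1 (-1.14) and Col6a2 (-0.51) lie in the left tail and the other 4 marked genes between 0.16 and 0.54.

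The fold was also placed among the same 13569 genes in each state, so that the lists have equal length. The highest H3K4me3 fold of Col6a1 exceeded that of 73.9% of these genes in QSC and 2.67% in ASC. For Col6a2 the shares were 26.6% and 4.38%. Col3a1 exceeded 18.8% in QSC and 28.2% in ASC, Col12a1 17.4% and 18.0%, Col11a1 8.45% and 6.74%, and Col1a2 1.90% and 4.18%. In QSC the collagen VI pair ranked above each of these 4 genes, and in ASC below Col3a1, Col12a1 and Col11a1.

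**Figure D3:**
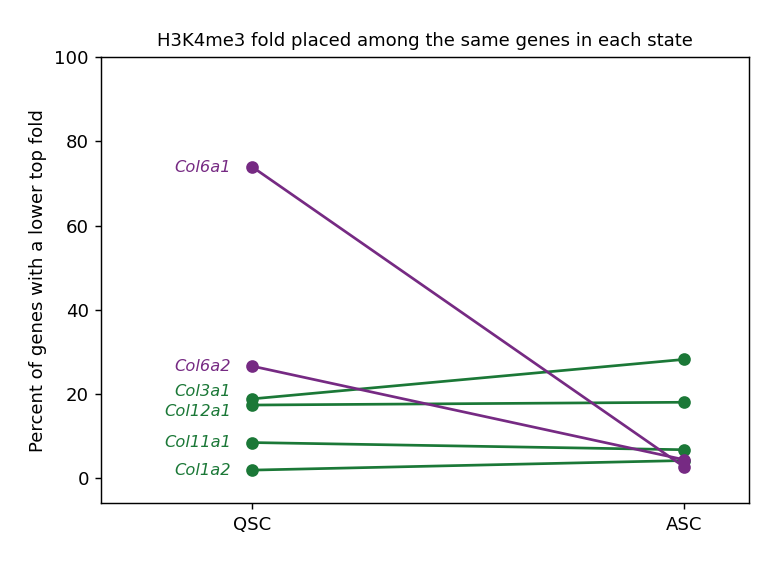
For each collagen gene with H3K4me3 in both states, the percentage of the same 13569 genes whose highest H3K4me3 fold was lower, in QSC and in ASC; purple lines are collagen VI genes and green lines fibrillar or fibril-associated genes. Col6a1 lies at 73.9% in QSC and 2.67% in ASC, while the 4 green lines lie between 1.90% and 28.2%.

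Col6a3 encodes the long chain that assembles with those of Col6a1 and Col6a2 (chromosome 1, 90766860 to 90844001). No narrow H3K4me3 peak was listed in its record window in either state. The ASC broad list had a peak of 6500 bp over its start (90837518 to 90844017) with a fold of 2.03 and a -log10 q of 0.84, and the QSC broad list had none within 1 kb of the start. Col6a6, an alternative long chain (chromosome 9, 105689417 to 105828246), had a narrow peak of 448 bp over its start in QSC with a fold of 3.15, above 0.82% of the list, and none in ASC. The chains of collagen VI that assemble together thus differed in H3K4me3, with Col6a1 and Col6a2 marked in both states and Col6a3 in neither narrow list.

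Promoter letters were compared because H3K4me3 and Polycomb marks are both known to favour CpG-rich DNA. The 250 bases before the start are shown for 4 genes that differ in their marks: Col1a2 (H3K4me3 in both states), Col3a1 (H3K4me3 without H3K27me3), Col6a1 (shorter H3K4me3 in ASC) and Col6a3 (H3K27me3 without narrow H3K4me3). They are written 5′ to 3′ on the gene's strand, from RefSeq for GRCm38.p6, with CpG dinucleotides in capitals. They lie at chr6:4505368-4505617 (plus strand), chr1:45311288-45311537 (plus), chr10:76726045-76726294 (minus) and chr1:90843972-90844221 (minus).
Col1a2: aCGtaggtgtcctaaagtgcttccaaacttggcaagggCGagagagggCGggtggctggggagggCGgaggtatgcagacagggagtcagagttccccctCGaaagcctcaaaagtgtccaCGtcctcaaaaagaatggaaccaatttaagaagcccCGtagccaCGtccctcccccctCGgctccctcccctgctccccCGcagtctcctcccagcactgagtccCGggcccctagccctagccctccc
Col3a1: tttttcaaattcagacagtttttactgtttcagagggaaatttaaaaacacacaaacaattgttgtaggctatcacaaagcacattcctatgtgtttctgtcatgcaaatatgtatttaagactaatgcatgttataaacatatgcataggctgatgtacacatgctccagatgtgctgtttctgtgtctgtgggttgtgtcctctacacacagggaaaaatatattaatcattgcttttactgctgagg
Col6a1: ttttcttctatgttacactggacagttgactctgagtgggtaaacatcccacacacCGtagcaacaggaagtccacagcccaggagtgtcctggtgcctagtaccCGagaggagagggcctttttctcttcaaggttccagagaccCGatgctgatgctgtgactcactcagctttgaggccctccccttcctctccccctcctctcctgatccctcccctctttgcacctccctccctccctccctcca
Col6a3: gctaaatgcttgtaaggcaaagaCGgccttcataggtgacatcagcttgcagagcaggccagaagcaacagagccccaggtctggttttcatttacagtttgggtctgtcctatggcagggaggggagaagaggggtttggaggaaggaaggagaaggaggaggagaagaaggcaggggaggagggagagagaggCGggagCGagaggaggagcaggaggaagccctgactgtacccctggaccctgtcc

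The stretch shown holds 11 CpG at Col1a2, 0 at Col3a1, 3 at Col6a1 and 3 at Col6a3. Over all 300 bases that RefSeq gives, which add 50 bases after the start, the ratio of observed to expected CpG was 0.47 at Col1a2, 0.00 at Col3a1, 0.13 at Col6a1 and 0.14 at Col6a3. The median of 32851 promoters was 0.38. Col6a6 had 0.44, Col11a1 0.33, and the pair of Col6a2 starts 0.56 and 0.25. The H3K4me3 of Col3a1, called in both lists, thus lay at a start with no CpG in these letters, and H3K27me3 lay at starts both above and below the median. At Col3a1 and Col6a1 most of the marked DNA lay outside the letters counted. The Col3a1 peak over the start ran from -47 bp to 1579 bp in QSC and from -958 bp to 2598 bp in ASC. The Col6a1 peaks began 2 bp (QSC) and 37 bp (ASC) inside the gene.

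In the same 300 bases, on both strands, CCAAT occurred at Col1a2 (2 matches) and Col11a1 (1), and in 37.4% of all promoters. TATAAA occurred at Col3a1 (1 match) and in 13.6% of promoters. GGGCGG, which itself contains a CpG, occurred at Col1a2, Col11a1, Col6a2 and Col6a6 and in 35.7% of promoters. CANNTG, which can overlap the other motifs, occurred at Col3a1 (4), Col6a1 (1) and Col6a6 (1), and in 72.3% of promoters. A match describes letters only.

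With broad peaks of any strength counted, H3K27me3 was found in the record window of every member except Col3a1. In ASC it reached the start of more members. In the record window 9 members were called in each state, against 69.6% of all genes in QSC and 69.2% in ASC, with 0 in QSC only (6.06%), 0 in ASC only (5.63%) and 1 in neither (24.7%). The ASC only count was 4 at a -log10 q of 1.3 or more and 3 with narrow peaks. Both marks lay in the record window of 6 members in QSC (47.1%) and 7 in ASC (47.6%). In the start window H3K27me3 was called at Col14a1, Col6a3 and Col6a6 in QSC, 3 members, and at 8 in ASC, against 24.9% and 30.0% of all genes. Col3a1 and Col6a1, 2 members, were called in neither state there (67.4%). The 5 called in ASC only were Col1a1, Col1a2, Col11a1, Col12a1 and Col6a2, where 7.68% of all genes were called in ASC only, and no member was called in QSC only (2.56% of all genes). The peaks concerned were weak, and none of these 5 calls was left when folds under 3 were dropped, or when a -log10 q of 5 was required.

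The number of covered bases behind each start call shows how near some were to the 500 bp minimum. Of the 2 kb start window, broad H3K27me3 peaks covered 0 bp in QSC and 1241 bp in ASC at Col1a1, and 0 bp and 662 bp at Col1a2. Col11a1 had 450 bp and 2001 bp, so that QSC lay just under the minimum. At Col12a1 they were 356 bp and 2001 bp, and at Col6a2 0 bp and 2001 bp. Col14a1 had 1604 bp and 2001 bp, Col6a3 1195 bp and 2001 bp, and Col6a6 716 bp and 2001 bp. In ASC the whole start window was covered at 6 members.

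Over the whole record window H3K27me3 covered more bases in ASC at 8 members, fewer at Col6a3 and none in either state at Col3a1. Among all genes 42.5% had more in ASC and 33.5% more in QSC. The share of the window covered at Col6a1 was 1.60% in QSC and 30.3% in ASC, at Col6a2 16.3% and 42.3%, and at Col1a1 2.94% and 24.3%. Col14a1 had 24.3% and 38.6% and Col6a6 2.21% and 12.1%. Differences were small at Col1a2 (14.5% and 17.1%), Col11a1 (3.86% and 6.10%) and Col12a1 (3.29% and 4.67%). The median of all genes was 9.01% in QSC and 10.2% in ASC, and that of the 10 members 3.57% and 20.7%. The ASC broad list covered 517 Mb and the QSC list 455 Mb, and its median peak was longer (2793 bp against 1571 bp). With the ASC list reduced to the bases covered in QSC, 6 members had more in ASC.

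**Figure D4:**
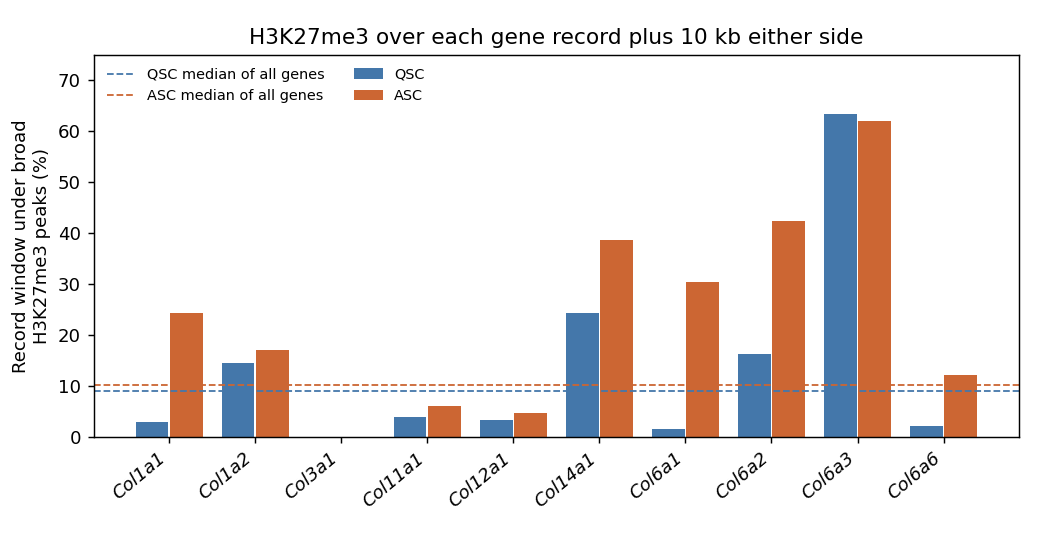
Percentage of each record window (gene record plus 10 kb on either side) under broad H3K27me3 peaks in QSC and ASC, with the median of all protein-coding genes as dashed lines (9.01% and 10.2%). Col6a1, Col6a2 and Col1a1 show the widest gaps between the states, Col6a3 is covered over more than 60 in each, and Col3a1 is at 0.

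At Col6a1 and Col6a2 the added H3K27me3 lay mostly beside the genes. An ASC broad peak of 34986 bp (chromosome 10, 76669771 to 76704756, fold 2.25) lay between the records of Col6a2 and Col6a1 and reached into the window of Col6a1, where the QSC list had 2 peaks of 402 bp and 195 bp. The start window of Col6a1 had 0 bp in both states. A further ASC peak of 8834 bp (76621691 to 76630524, fold 2.28) covered the start of Col6a2, where QSC had none. At the far end of Col6a2, towards the neighbouring gene Ftcd, both states had H3K27me3, with a peak of 6973 bp in QSC (fold 2.32) and 16230 bp in ASC (fold 2.68). The narrow lists also held H3K27me3 at that end, 2 peaks in QSC and 4 in ASC, of which the highest had folds of 4.31 and 6.34, and 2 ASC peaks upstream of the start (folds 4.22 and 3.27).

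Col6a3 was the member with most of its window under H3K27me3, 63.4% in QSC and 61.9% in ASC, more than at 89.2% and 86.2% of all genes. In QSC this was spread over 17 broad peaks and in ASC over 9, of which 1 of 15844 bp (90841265 to 90857108, fold 2.90, -log10 q of 3.40) covered the start. The strongest narrow H3K27me3 peak of any member lay upstream of Col6a3 in ASC (90849337 to 90853863), with a length of 4527 bp, a fold of 9.0 and a -log10 q of 26.7. A narrow peak of 3152 bp with a fold of 6.03 lay there in QSC. Narrow peaks covered 7139 bp of its window in QSC and 13195 bp in ASC.

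Col14a1 had narrow H3K27me3 peaks at its lower end in both states, the longest being 3666 bp in QSC (fold 6.66) and 4167 bp in ASC (fold 5.78). By broad peaks 56686 bp of its window were covered in QSC and 89960 bp in ASC. Col1a1, Col12a1, Col6a1 and Col6a6 had narrow H3K27me3 peaks in ASC only, with highest folds of 4.09, 4.50, 4.22 and 3.36. Col1a2, Col3a1 and Col11a1 had none in either state, so the broad calls of Col1a2 and Col11a1 had no narrow peak beside them.

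Both marks at the start were found at 1 member in QSC (Col6a6) and at 5 in ASC, against 6.28% and 10.7% of all genes. The 5 were Col1a1, Col1a2, Col11a1, Col14a1 and Col6a2. Several of these H3K27me3 calls rest on weak broad peaks, with a -log10 q of 0.36 at Col1a2 and 0.52 at Col11a1. At a -log10 q of 1.3 or more, Col14a1 and Col6a2 kept the ASC call, and Col1a1, Col1a2 and Col11a1 lost it. Col6a6 lost its QSC call. With narrow H3K27me3 peaks, Col14a1 alone of the 5 kept the call. The arrangement of the marks differed among these genes. At Col11a1, Col14a1 and Col6a2 the whole ASC H3K4me3 peak, 100% of its length, lay under a broad H3K27me3 peak. At Col1a1 the marks overlapped by 101 bp, and at Col1a2 the H3K27me3 peak ended 70 bp before the H3K4me3 peak began, where in QSC the gap was 761 bp. In QSC the marks of Col11a1 overlapped by 6 bp and those of Col6a6 by 40 bp. Col12a1 was not counted because its H3K4me3 peak lay outside the start window. Its ASC peaks of the 2 marks did overlap (79717223 to 79719629 for H3K4me3, 79719456 to 79723739 for H3K27me3). Among all genes with H3K4me3 at the start and H3K27me3 within 5 kb, the peaks overlapped at 19.3% in QSC and 37.9% in ASC. The lists pool many cells, so marks on the same nucleosomes and marks in different cells cannot be told apart.

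Col3a1 had no H3K27me3 peak of either kind in its window in either state, which was the case by broad peaks for 22.9% of all genes. By narrow H3K4me3 and broad H3K27me3 peaks, Col3a1 was the member with H3K4me3 alone in both states, and Col6a3 the member with H3K27me3 alone in both. The ASC broad list did hold an H3K4me3 peak over the Col6a3 start (fold 2.03, -log10 q of 0.84).

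Other genes of the collagen pathway carried H3K4me3 at most starts. Of 27 genes for collagen folding, modification and cross-linking, 22 had it in QSC and 24 in ASC (54.4% and 57.0% of all genes). Serpinh1, the collagen chaperone, had folds of 27.6 in QSC and 39.7 in ASC. The highest of the 10 members were 16.2 (Col6a1, QSC) and 17.3 (Col3a1, ASC). P4ha3, a prolyl hydroxylase subunit, and Pcolce, an enhancer of procollagen cleavage, were called in ASC only with folds of 5.42 and 3.72, beside 3.29% of all genes. H3K27me3 was called at 3 of these genes in QSC and 8 in ASC, where the shares of all genes were 24.9% and 30.0%. The 5 called in ASC only (7.68% of all genes) were Lox, P3h3, Tll1, Pcolce2 and P3h2. Lox, the cross-linking enzyme lysyl oxidase, had an ASC broad peak with a fold of 2.51. Of 24 genes of this list with an H3K4me3 domain in the record window in both states, 3 had the shorter domain in ASC (9.04% of all genes). Some of the 24 lacked a start call in QSC or in both states. Loxl1 had the lowest log2 ratio of them, -0.656.

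Among 16 other collagen genes of the fibrillar, fibril-associated and collagen VI classes, 7 had H3K4me3 at the start in QSC and 6 in ASC (54.4% and 57.0% of all genes), and 9 and 11 had H3K27me3 (24.9% and 30.0%). Col16a1 was called for H3K4me3 in QSC only (0.736% of all genes), with a fold of 3.81. Col5a1 and Col24a1 were called for H3K27me3 in ASC only (7.68% of all genes), with folds of 2.05 and 1.68. Col5a2, which lies near Col3a1 and encodes a collagen V chain, had H3K4me3 folds of 12.1 in QSC and 28.4 in ASC and no H3K27me3 call at its start. Col6a4 and Col6a5, neighbours of Col6a6, had H3K27me3 and no H3K4me3 in both states. Of the 16 genes, 10 had an H3K4me3 domain in the record window in both states, with a median log2 length ratio of 0.961. Some of the 10 lacked an H3K4me3 call at the start, so their domain may lie away from it or at a neighbouring gene. The domain was shorter in ASC at 2 of them, Col5a1 (-0.472) and Col5a3 (-0.214). Of 15 fibril-binding proteoglycans and collagen receptors, 9 had H3K4me3 in QSC and 10 in ASC with Itga2 added, and 3 and 5 had H3K27me3 with Mmp14 and Cspg4 added, beside the same shares of all genes. Among 11 of them with a domain in the record window in both states, some without a start call, 2 were shorter in ASC. These were Itga11 (log2 ratio -1.199) and Mrc2 (-0.164).

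Genes whose record windows were covered most like those of 4 members were sought over 4 values, the percentage under each mark in each state. For Col3a1 the nearest were Ranbp9, Ctr9 and Eif1ax, at distances of 0.05 to 0.13 percentage points. For Col1a1 they were Pgf, Sap25 and Bach2 (1.19 to 2.94 points), for Col6a6 Fbxw16, Olfr611 and Nlrp14 (0.53 to 0.74), and for Col6a1 Atp13a2, Mon1a and Lgi4 (4.09 to 4.79). Col6a1 had the least close matches of these 4 members.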

How the data were processed

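Narrow and broad MACS2 peak lists, 8 in all, were deposited by the authors, and the labels name the same list for both replicates of a group. The submitters' processing notes name MACS2 2.1.1, Bowtie2 2.3.2, Trimmomatic 0.36, bedtools 2.26.0, Picard 2.9.2, SAMtools 1.3 and bcl2fastq 2.19 with mm10, and no settings were given in the sources. Peaks carry, as deposited by the authors, a fold enrichment (a ratio), -log10 values of p and q, and a display score that was not used. The lists are part of the peaks numbered by the caller: the H3K27me3 broad lists hold 71.3% (QSC) and 49.9% (ASC), and the H3K4me3 broad lists 50.9% and 18.1%.

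Gene records came from RefSeq for GRCm38.p6, whose coordinates mm10 shares, and exons were not used here. Promoter starts were used for 17491 of 21883 protein-coding genes and either record end for the rest. Overlaps, domains and edges were computed with Python 3.11.15 and pandas 2.3.3, and the interval code was tested on simulated peaks. Values are set beside those of all genes with no test. The members and lists were chosen with earlier results of these data known, and 93 of 94 listed symbols matched. Named are all members, list genes whose start call differs between states (up to 6 a list, highest fold first), neighbours sharing a peak, and for Col1a1, Col3a1, Col6a1 and Col6a6 the 3 nearest genes by coverage. Pax7, Myf5, Cdh15, Sdc4, Dpt, Dcn, Lum, P3h2, Serpinh1, Loxl1, Col5a2, Col5a3, Col6a4, Col6a5, Itga11 and Mrc2 were named after their values were seen. Alternatives were other thresholds, list lengths, lists, windows, overlaps, gene assignment, merging gaps and all 49939 annotated genes.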

Additional observations from a re-analysis of the deposited data

How the results depend on the processing

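No paired analysis was possible because each mark and state has 1 pooled list, so no replicate could be matched or left out. Broad H3K27me3 peaks were weak, and a stricter threshold removed most calls. At a -log10 q of at least 5, H3K27me3 was called at 0 members in QSC and 0 in ASC, in the record window and at the start, and 0 had more bases in ASC. At a fold of at least 3 the record counts were 1 in QSC and 0 in ASC, the start counts 1 and 0, and 0 members had more bases in ASC. At a q of at most 0.05 (-log10 q of at least 1.3, chosen after seeing the data) the record counts were 2 in QSC and 6 in ASC, with Col12a1, Col6a1, Col6a2 and Col6a6 (4, against 0) in ASC only, and the start counts were 1 in QSC and 5 in ASC, with Col12a1, Col6a2, Col6a3 and Col6a6 called in ASC only. With narrow H3K27me3 peaks the record counts were 3 in QSC and 6 in ASC, 3 of them in ASC only, and the start counts were 1 and 3. Equal numbers of peaks, smaller record windows, a larger overlap and assignment to the nearest gene each gave 1 member in ASC only in the record window. With start windows of 2.5 kb the H3K27me3 start count in QSC was 6, and Col12a1 and Col6a2 alone were called in ASC only. The H3K4me3 start counts with these windows were 7 in QSC and 8 in ASC, with Col12a1 added in each. Shortening the ASC H3K4me3 list to equal covered bases left 1 member, Col3a1, called in ASC in the record window and 1 at the start, 6 called in QSC only in the record window, and a domain ratio of 0.49 for that gene. With equal numbers of peaks no member had H3K4me3 in ASC only. With the broad H3K4me3 lists (184538 peaks in QSC, 29297 in ASC) the median log2 domain ratio reversed to -0.059 over 10 members, and stayed below 0 at Col6a1 (-0.36) and Col6a2 (-0.24). The ratios at Col6a1 and Col6a2 were otherwise -1.14 and -0.51 in every alternative that kept them. Of 90 alternative values for 10 results, 69 stayed near the reported ones (counts within 1.5 times, log2 ratios within 0.1). Counts called in a single state and the ratios of Col6a1 and Col6a2 were not among the 90. The H3K27me3 start count in ASC only went from 5 to 0 at the -log10 q of 5 and at the fold of 3. It went to 2 with narrow peaks and with start windows of 2.5 kb. With all annotated genes the shares called in a single state were 2.26% for H3K4me3 (ASC only) and 7.98% for H3K27me3 (ASC only) at the start. Depth limits all calls and is unknown.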
